A study of Mus musculus with 6 samples.

Results

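The pleiotrophin and midkine signalling genes were described in mouse dermal fibroblasts treated with a demethylating drug. The 9 genes are the heparin-binding growth factors Ptn (pleiotrophin) and Mdk (midkine), the syndecans Sdc1, Sdc2, Sdc3 and Sdc4, the receptors Ptprz1 and Alk, and Ncl (nucleolin). They were taken by gene symbol, and 26 of the 45037 probe sets on the arrays carried one of these symbols and no other. The genes were proposed with the signals of these same arrays in view, and the rule compares the 3 groups within each replicate number. Their levels and differences between groups are therefore given as a description, with no p-value for any of them. Counts of them past the thresholds of the fit stand beside the share over all probe sets, and nothing is read from those counts.

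The study measured total RNA on 6 Affymetrix mouse expression arrays in 3 groups of 2, which the labels call biological replicates. The fibroblasts were explanted from the dermis of newborn mice of 0 to 2 days, labelled B6, whose mothers were BL6 and whose fathers came from a 129/ICR mixed background. They were used at passage 4. An X-linked GFP transgene was present in every group in heterozygous form, driven by the chicken β-actin promoter with a CMV enhancer, and were sorted at the start for cells without GFP. GFP-positive cells had received 4 μM 5-aza-2'-deoxycytidine for 48 hours and recovered for 24 hours, and were then sorted for an active transgene. The treatment is taken from the titles and the treatment labels, while the free-text descriptions of all 4 such samples pair that dose with the word untreated. GFP-negative cells had the same treatment and were sorted for a transgene that had stayed silent. Control cells were left untreated over the same times and were not sorted again, so drug and second sort cannot be told apart in any comparison with control. The labels give the sex of control replicate 2 as mixed and that of the other arrays as female. They do not say whether replicates came from separate litters or cultures, so the spread between arrays may be partly technical.

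Pleiotrophin and midkine together form a small family of secreted proteins that bind heparan and chondroitin sulfate chains. Ptprz1 is a receptor tyrosine phosphatase with chondroitin sulfate chains, and pleiotrophin binding lowers its activity. Syndecans are transmembrane proteoglycans that hold such growth factors at the cell surface through their heparan sulfate chains. Alk, a receptor tyrosine kinase, and Ncl, an RNA-binding protein of the nucleolus that also occurs at the cell surface, have been described as further partners. Pleiotrophin is known as a product of mesenchymal cells, and Ptprz1 and Alk are best known from the nervous system.

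Signals are given after scaling each array to a 2% trimmed mean of 500. The trimmed mean of the deposited values was 500.003 or 500.004 on 4 arrays, but 50.5 on GFP-positive replicate 2 and 62.0 on GFP-negative replicate 2. The arrays numbered 1 and 2 also differed in shape, with a lower quartile of 38.7 to 42.5 on the replicate 1 arrays and of 19.2 to 22.6 on the replicate 2 arrays after scaling. For this reason most differences of the 9 genes are given within replicate 1 and within replicate 2 as well as for their mean. Of other genes the mean is given, with both values where the sign differed between replicate numbers. Differences are on the scale of log2(signal + 30.64), so the change of a dim probe set is understated. Of the 26 probe sets, 25 reached the mean signal of 67.71 required for the fit across all probe sets, and the exception was 1431474_at of Sdc2. A fall in the number of cells of a type and less RNA per cell cannot be told apart in such bulk samples.

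Ptn signal was much lower in both treated groups than in control. On its brightest probe set, 1448254_at, the signal was 6426 and 2603 in GFP-positive cells, 8565 and 2806 in GFP-negative cells, and 21573 and 14500 in control cells. All 4 treated arrays lay below both control arrays. The mean was 4515 ± 2703 in GFP-positive cells, 5685 ± 4073 in GFP-negative cells and 18036 ± 5002 in control cells (SD, n = 2 each), so that the treated means were 25% and 31.5% of the control mean. GFP-positive minus control was -2.10 ± 0.57 on the log2 scale (SE of the fit), with -1.74 within replicate 1 and -2.46 within replicate 2. GFP-negative minus control was -1.84 ± 0.57, with -1.33 and -2.36. In both comparisons, which share the control arrays, the gap was wider within replicate 2.

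A second Ptn probe set, 1416211_a_at, showed a wider gap. Its signal was 1648 and 863 in GFP-positive cells, 2445 and 872 in GFP-negative cells, and 11751 and 11293 in control cells. All 4 treated arrays again lay below both control arrays, which lay close together. The treated means were 10.9% and 14.4% of the control mean, with differences of -3.24 ± 0.48 (-2.81 and -3.66) for GFP-positive and -2.95 ± 0.48 (-2.25 and -3.65) for GFP-negative cells. Both probe sets are annotated to the same transcript record. The third Ptn probe set, 1443173_at, was annotated to another record and was dim, with 272 and 79.2 in GFP-positive cells, 244 and 92.7 in GFP-negative cells, and 337 and 102 in control cells. There the groups overlapped, and the differences from control were -0.27 ± 0.71 and -0.26 ± 0.71. The treated fractions themselves overlapped on all 3 probe sets, and on the brightest GFP-positive minus GFP-negative was -0.26 ± 0.57 (-0.41 and -0.11).

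**Figure D1:**
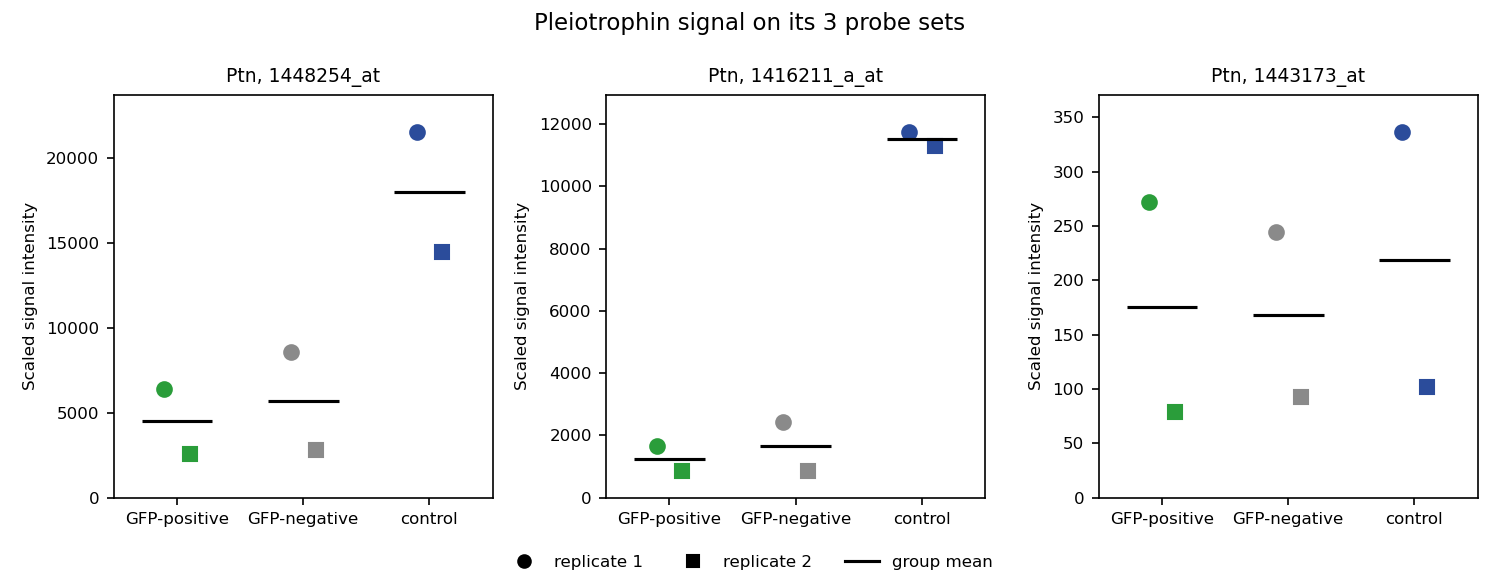
Scaled signal intensity of pleiotrophin (y axis, linear from 0) by group (x axis) on each of its 3 probe sets. Circles are replicate 1, squares replicate 2 and bars the mean of 2 arrays. On 1448254_at and 1416211_a_at all 4 treated arrays lie below both control arrays, while on the dim 1443173_at the groups overlap.

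Among the 13223 genes in the fit, each taken at its brightest probe set, Ptn ranked 36 from the lowest in GFP-positive minus control and 41 from the lowest in GFP-negative minus control. In GFP-positive minus GFP-negative its rank was 2310. In both comparisons with control the other members stood nearer the middle of the order, as with Ptprz1 at 1131 and 2378 from the lowest and Sdc3 at 1569 and 1192 from the highest. In GFP-positive minus GFP-negative Sdc4 (439), Mdk (971), Sdc2 (1697) and Ptprz1 (1920) ranked nearer the lowest end than Ptn. These ranks are a description of the order and come from the same values that led to the choice of the genes.

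The promoter sequences of 7 of the 9 genes were found in a RefSeq table of the GRCm38.p6 build. The drug acts on methylation at CG dinucleotides, and those in the 250 bases before the start site are shown in capitals for Ptn, which was lower in treated cells on its bright probe sets, Ptprz1, lower on 1 of its 3 probe sets, and Sdc3, higher on its brightest. The Ptn stretch is chr6:36810180-36810429 on the minus strand, the Ptprz1 stretch chr6:22875252-22875501 on the plus strand, and the Sdc3 stretch chr4:130792287-130792536 on the plus strand.
Ptn: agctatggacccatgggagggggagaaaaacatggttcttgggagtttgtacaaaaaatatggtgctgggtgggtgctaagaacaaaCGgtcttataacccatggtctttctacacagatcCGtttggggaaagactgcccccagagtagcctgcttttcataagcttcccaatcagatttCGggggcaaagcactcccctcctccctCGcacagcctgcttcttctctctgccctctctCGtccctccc
Ptprz1: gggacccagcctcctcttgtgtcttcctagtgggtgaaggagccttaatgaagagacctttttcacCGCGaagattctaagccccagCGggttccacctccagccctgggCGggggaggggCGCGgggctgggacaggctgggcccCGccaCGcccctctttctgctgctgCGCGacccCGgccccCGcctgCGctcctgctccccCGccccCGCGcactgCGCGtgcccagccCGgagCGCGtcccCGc
Sdc3: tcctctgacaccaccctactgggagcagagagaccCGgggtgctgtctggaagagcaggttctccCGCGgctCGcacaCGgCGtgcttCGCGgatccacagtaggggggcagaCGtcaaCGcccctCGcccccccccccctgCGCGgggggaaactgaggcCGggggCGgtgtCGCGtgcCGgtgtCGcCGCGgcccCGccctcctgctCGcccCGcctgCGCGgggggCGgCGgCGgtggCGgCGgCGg
The Ptn stretch held 5 CG dinucleotides, the Ptprz1 stretch 22 and the Sdc3 stretch 32. Over 32851 such stretches of all genes in the table the median was 6, with quartiles of 2 and 16, and 92.1% held at least 1. Ptn thus lay near the median, and its ratio of observed to expected CG was 0.30, against 0.70 for Ptprz1 and 0.88 for Sdc3. Of the other matched genes, Ncl had 27, Alk 23, Sdc4 19 and Sdc1 10. The GC-box letters GGGCGG, which contain a CG and were searched on both strands, occurred in the stretches of 6 of the 7 genes, Ptn being the exception, and in 32.7% of all stretches. The letters TATAAA, searched likewise, occurred in 0 of the 7 and in 12.4% of all. Methylation itself was not analysed here, and these letters describe the stretches only.

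Mdk, the other ligand, did not show the pattern of Ptn. Its single probe set, 1416006_at, had a signal of 377 and 180.1 in GFP-positive cells, 475 and 287 in GFP-negative cells, and 657 and 234 in control cells. The 3 groups overlapped, and in every group the replicate 1 array was the higher. The difference from control was -0.54 ± 0.54 (-0.76 and -0.33) for GFP-positive cells. For GFP-negative cells it was -0.09 ± 0.54, negative within replicate 1 (-0.44) and positive within replicate 2 (0.27).

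Ptprz1 was lower in treated cells on one of its probe sets. On 1427019_at the signal was 512 and 522 in GFP-positive cells, 921 and 990.0 in GFP-negative cells, and 1133 and 2254 in control cells. The 3 groups did not overlap and stood in the order GFP-positive, GFP-negative, control, with the control arrays far apart. GFP-positive minus control was -1.57 ± 0.33 (-1.10 and -2.05), GFP-negative minus control -0.73 ± 0.33 (-0.29 and -1.16), and GFP-positive minus GFP-negative -0.85 ± 0.33 (-0.81 and -0.88). The brighter Ptprz1 probe set, 1452284_at, is annotated to the same record and did not show this order. It had 1456 and 732 in GFP-positive cells, 1408 and 1165 in GFP-negative cells, and 1281 and 1939 in control cells. The groups overlapped there, and GFP-positive minus control was 0.18 within replicate 1 and -1.37 within replicate 2 (mean -0.59 ± 0.36). The third, 1418690_at, lay between 51.6 and 116.4 on all arrays, close to the signal required for the fit, with both GFP-positive arrays (59.2 and 60.4) just below the control arrays (79.5 and 64.7).

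Alk was dim on its single probe set, 1449987_at, with 90.2 and 87.1 in GFP-positive cells, 131.6 and 76.6 in GFP-negative cells, and 131.7 and 98.1 in control cells. Both GFP-positive arrays lay just below the control arrays and the GFP-negative arrays overlapped them. The differences from control were -0.28 ± 0.51 (-0.43 and -0.13) and -0.13 ± 0.51 (0.00 and -0.26), smaller than their errors.

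**Figure D2:**
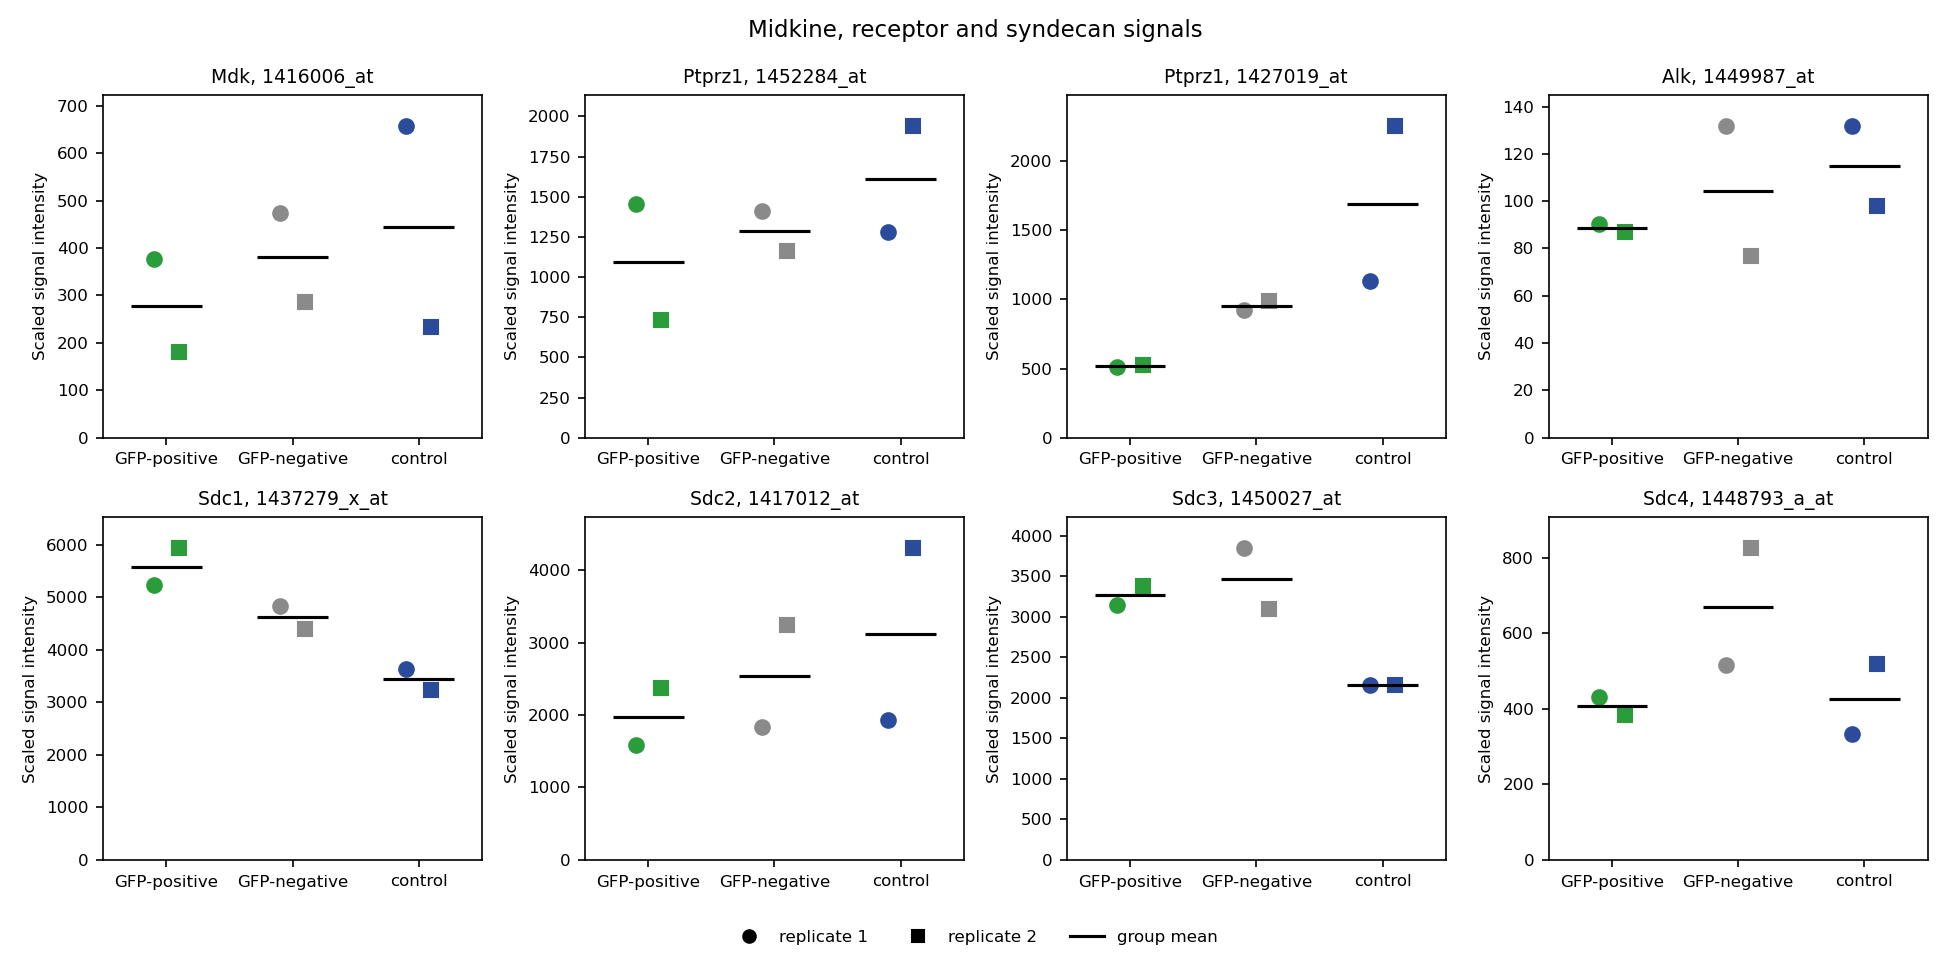
Scaled signal intensity (y axes, linear from 0, each panel on its own scale) by group (x axis) for Mdk, Ptprz1 on its 2 brighter probe sets, Alk and the brightest probe set of each syndecan. Circles are replicate 1, squares replicate 2 and bars the mean of 2 arrays. Ptprz1 on 1427019_at is lower in all 4 treated arrays than in both control arrays, and Sdc1 and Sdc3 are higher, while the 4 treated arrays overlap the control arrays for Mdk, Alk, Sdc2 and Sdc4.

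The syndecans differed among themselves. Sdc3, the syndecan first known from neural tissue as a pleiotrophin receptor, was higher in treated cells. On 1450027_at it had 3149 and 3382 in GFP-positive cells, 3843 and 3092 in GFP-negative cells, and 2155 and 2154 in control cells. All treated arrays lay above the control arrays, which hardly differed. The differences from control were 0.59 ± 0.21 (0.54 and 0.64) in GFP-positive and 0.67 ± 0.21 (0.83 and 0.52) in GFP-negative cells. On 1436482_a_at Sdc3 was higher by a like amount within each replicate number, by 0.65 and 0.60 in GFP-positive and 0.51 and 0.48 in GFP-negative cells, but replicates 1 and 2 lay so far apart that the groups overlapped. The dimmest Sdc3 probe set, 1420853_at, gave 0.18 and 0.81 for GFP-positive cells, and -0.60 and 1.22 for GFP-negative cells, which have no one direction.

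Sdc1, the syndecan of epithelia and plasma cells, was higher on 2 of its 4 probe sets. On the brightest, 1437279_x_at, the signal was 5226 and 5928 in GFP-positive cells, 4835 and 4401 in GFP-negative cells, and 3633 and 3241 in control cells. The groups stood apart in that order, with differences from control of 0.69 ± 0.20 (0.52 and 0.87) and 0.42 ± 0.20 (0.41 and 0.44). On 1415944_at the order was the same, with 1194 and 1058 in GFP-positive cells, 963 and 979 in GFP-negative cells, and 892 and 822 in control cells. On the remaining Sdc1 probe sets the treated arrays overlapped the control arrays, with GFP-positive minus control at 0.20 ± 0.21 (-0.04 and 0.43) on 1415943_at and 0.00 ± 0.35 (0.26 and -0.26) on 1448158_at. The design name of the brightest marks it as open to binding other transcripts too, and with such probe sets left out Sdc1 is represented by 1415943_at and its difference of 0.20.

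Sdc2, a syndecan of fibroblasts and other mesenchymal cells, had 1581 and 2373 in GFP-positive cells, 1835 and 3236 in GFP-negative cells, and 1933 and 4299 in control cells on 1417012_at. The groups overlapped because replicate 2 was the higher array in each group. GFP-positive minus control was below 0 within both replicate numbers on the 3 Sdc2 probe sets in the fit, at -0.57 ± 0.43 (-0.29 and -0.85), -0.47 ± 0.62 (-0.47 and -0.47) and -0.30 ± 0.26 (-0.23 and -0.36). In fits without the block, the first of these was 0.00 without control replicate 2 and -1.14 without control replicate 1. Such fits do not pair replicate numbers, so the higher signal of replicate 2 enters both values. Only on the last of these, 1448545_at, did the GFP-positive arrays lie apart from the control arrays, at 1445 and 1681 against 1702 and 2169. The probe set below the required signal, 1431474_at, had 7.3 and 1.0 in GFP-positive cells, 77.1 and 59.7 in GFP-negative cells, and 4.5 and 16.8 in control cells. Both GFP-negative arrays lay above all others there, which was not so on the brighter Sdc2 probe sets. On 1448545_at, however, the GFP-negative mean was also the highest, at 2023 against 1936 in control and 1563 in GFP-positive cells.

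Sdc4, a syndecan of focal adhesions, had 431 and 383 in GFP-positive cells, 516 and 826 in GFP-negative cells, and 333 and 520.1 in control cells on 1448793_a_at. GFP-positive minus control changed sign between replicates (0.35 and -0.41), and GFP-negative minus control did not (0.59 and 0.64; mean 0.61 ± 0.34). That mean was 0.29 without GFP-negative replicate 2, in a fit without the block that does not pair replicate numbers. With probe set types that can bind more than 1 transcript left out, Sdc4 is represented by 1417654_at, at -0.06. On 1417654_at both comparisons with control changed sign, at 0.29 and -1.23 for GFP-positive and 0.84 and -0.95 for GFP-negative cells. On both Sdc4 probe sets the GFP-positive arrays lay below the GFP-negative arrays, by -0.65 ± 0.34 (-0.24 and -1.05) on 1448793_a_at and by -0.41 ± 0.48 (-0.55 and -0.27) on 1417654_at.

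Ncl had 10679 and 14372 in GFP-positive cells, 9985 and 11773 in GFP-negative cells, and 8546 and 12931 in control cells on its brightest probe set, 1415771_at. The groups overlapped, with differences from control of 0.24 ± 0.27 (0.32 and 0.15) and 0.04 ± 0.27 (0.22 and -0.13). On 1415773_at both GFP-positive arrays, at 7790 and 7100, lay above the GFP-negative arrays, at 5458 and 6322, and the control arrays, at 4956 and 6226. The difference from control was 0.42 ± 0.22 (0.65 and 0.19) in GFP-positive and 0.08 ± 0.22 (0.14 and 0.02) in GFP-negative cells. On 1456528_x_at the GFP-positive arrays again lay above the control arrays, with a difference of 0.32 ± 0.27. The dimmer 1415772_at and 1442404_at changed sign between replicate numbers in that comparison.

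**Figure D3:**
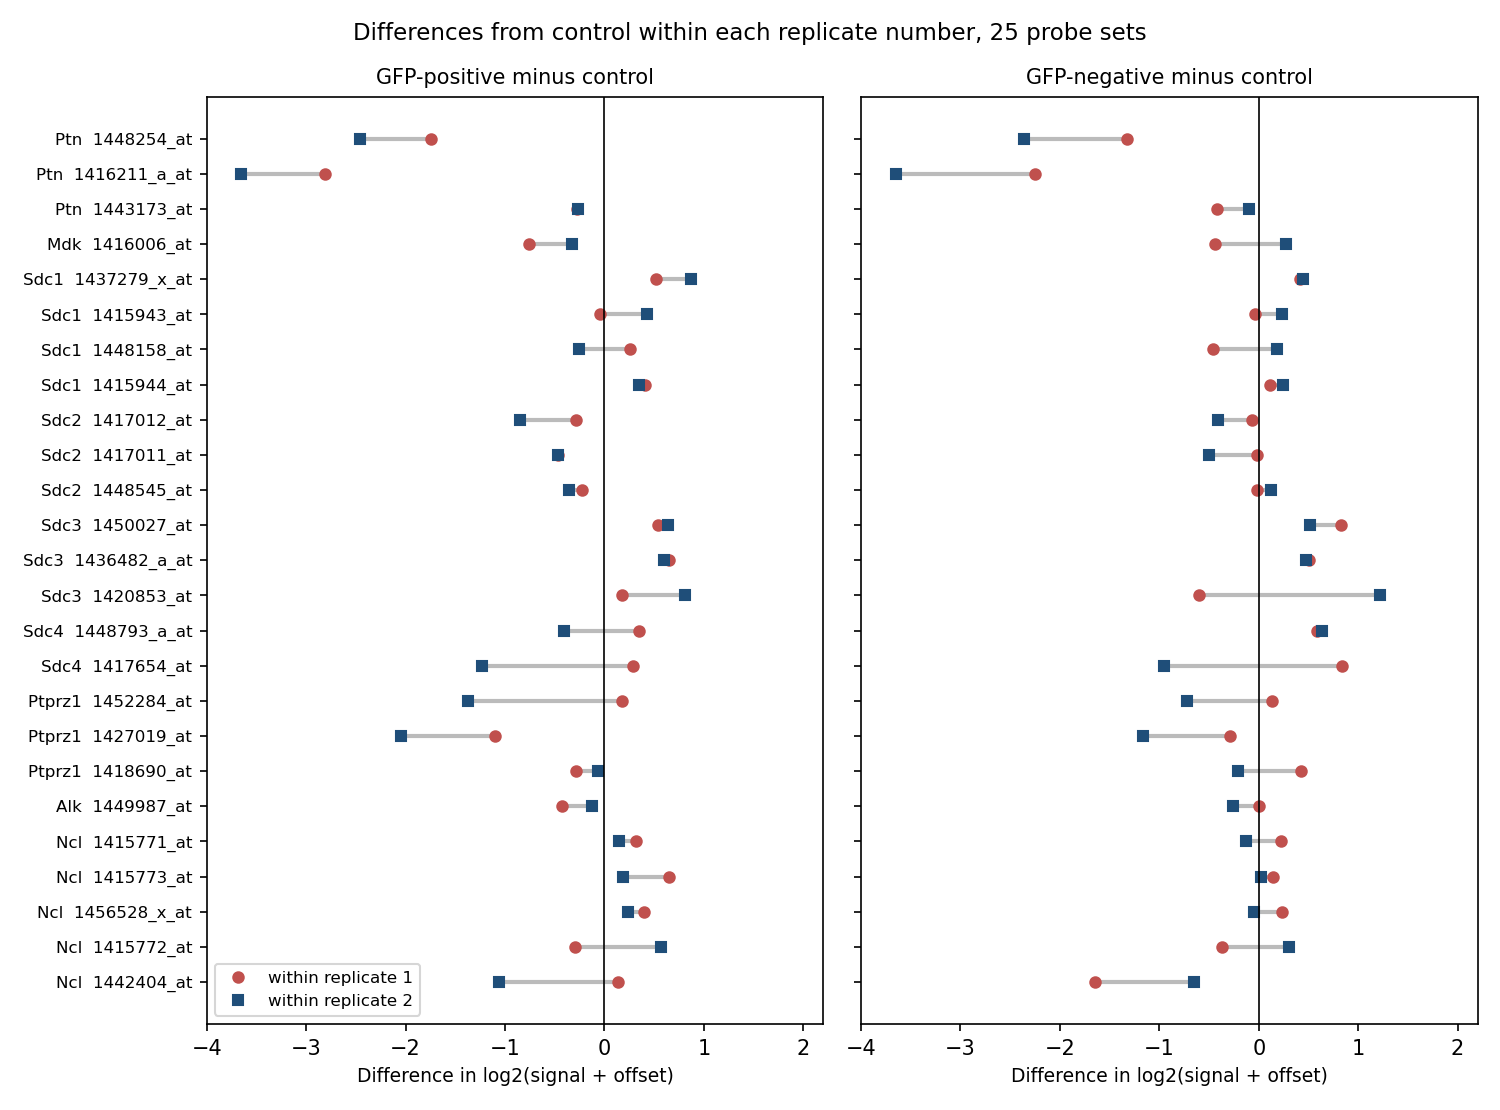
Difference from control in log2(signal + offset) (x axis) for the 25 probe sets in the fit (rows), for GFP-positive (left) and GFP-negative cells (right), which share the control arrays. Circles are the differences within replicate 1, squares those within replicate 2, and grey bars join them. Both bright Ptn probe sets lie below -1 within both replicate numbers in both treated groups, as does Ptprz1 1427019_at in GFP-positive cells.

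The fit across all probe sets is given as counts. Limma with Benjamini-Hochberg adjustment called 0 of the 25 in GFP-positive minus control, where it called 0.122% of all 27022 (33 probe sets), and 5 of the 25 had an unadjusted p under 0.05, against 7.04% of all. In GFP-negative minus control it called 0 of the 25 against 0.0296% of all (8 probe sets), with 3 of the 25 and 5.07% of all at an unadjusted p under 0.05. In GFP-positive minus GFP-negative it called 0 of the 25 and 0.0% of all, with 1 of the 25 and 0.625% of all at an unadjusted p under 0.05. With the replicate number as a block, 5 of the 25 were called in GFP-positive minus control, namely both bright Ptn probe sets and Ptprz1 1427019_at as lower and Sdc1 1437279_x_at and Sdc3 1450027_at as higher, against 6.21% of all (3.06% lower and 3.15% higher). In GFP-negative minus control the blocked fit called 3 of the 25, both bright Ptn probe sets as lower and Sdc3 1450027_at as higher, against 3.57% of all (1.68% lower and 1.9% higher). In GFP-positive minus GFP-negative it called 0 of the 25 and 0.0% of all, with 4 of the 25 and 5.75% of all at an unadjusted p under 0.05. The block was also used without the mean-variance trend. Limma then called 0 of the 25 in both comparisons with control, against 8 and 0 of all 27022. In that fit 4350 and 3489 of all probe sets had an unadjusted p under 0.05. The genes were chosen on these same contrasts.

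The 4 treated arrays lay below both control arrays for 3 of the 25 probe sets, 2 of Ptn and 1 of Ptprz1, against 8.26% of all. They lay above both for 3, 2 of Sdc1 and 1 of Sdc3, against 9.46% of all. Taken singly, the GFP-positive arrays lay above both control arrays for 5 of the 25 (17.3% of all) and below for 6 (14.9%). The GFP-negative arrays lay above them for 3 (15.1%) and below for 4 (13.5%). The GFP-positive arrays lay above both GFP-negative arrays for 4 (10.6%), 3 of them of Sdc1 and 1 of Ncl, and below for 4 (10.0%), 2 of Sdc4 and 1 each of Ptprz1 and Sdc2. Within both replicate numbers and in both treated groups, 7 of the 25 were below control (17.3% of all) and 5 were above it (22.0%). A difference of at least 1 below control within both replicate numbers was seen in 3 of the 25 in GFP-positive cells (both bright Ptn probe sets and Ptprz1 1427019_at), against 1.23% of all, and in 2 in GFP-negative cells (both of Ptn), against 0.918%. No member was higher by that much in either treated group (0 of the 25, against 1.61% and 1.39% of all).

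The genes most like Ptn were sought over the 6 arrays after centring log2 values within each replicate number, among the 465 genes that differed by at least 1 between GFP-positive and control cells within both numbers. The 5 with the highest Pearson correlation to Ptn 1448254_at were Dmrt2, a DM-domain transcription factor (r = 0.9986), Ahnak2 (0.9979), the kinase Map3k9 (0.9976), Cdon, a cell surface co-receptor of hedgehog proteins (0.9976), and the collagen chain Col6a1 (0.9974). The points share their arrays and the genes were first picked for a large difference, so these values describe likeness only. Dmrt2 was dim, with 112 and 97.0 in GFP-positive cells, 148 and 102 in GFP-negative cells, and 323 and 499 in control cells. Col6a1 had a signal of 6743 and 3126 in GFP-positive cells, 7806 and 3437 in GFP-negative cells, and 14301 and 8369 in control cells. Ahnak2 had 1650.2 and 1540 in GFP-positive cells, 1911 and 1514 in GFP-negative cells, and 4223 and 5563 in control cells. In all 3, as for Ptn, all treated arrays lay below the control arrays and the treated fractions overlapped. Map3k9 had 30.9 and 6.9 in GFP-positive cells, 41.2 and 10.5 in GFP-negative cells, and 168 and 158 in control cells. Its mean signal of 69.2 reached the required 67.71 only through the control arrays, so its likeness to Ptn rests on very dim treated signals.

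Markers of the labelled cell type were examined beside Ptn. All 12 fibroblast markers passed the filter, and 10 of the 12 had a mean below control in GFP-positive and in GFP-negative cells, with medians of -0.84 and -0.50 against 0.04 for all genes. None was called by limma (0 of 12; with the block 7 were called lower in GFP-positive and 6 in GFP-negative cells, against 3.06% and 1.68% of all probe sets). Their summed signal was 171527 to 171784 in GFP-positive cells, 168309 to 185321 in GFP-negative cells and 220262 to 220832 in control cells. Dcn, a matrix proteoglycan, was at -3.36 and -2.61 from control, whereas the filament gene Vim was at 0.18 and 0.05. Of the Schwann cell and glia markers, which concern Ptprz1 and Alk, 7 of 9 had a probe set and 6 passed the filter. Their summed signal overlapped between groups, with 642 to 1479 in GFP-positive cells, 674 to 1629 in GFP-negative cells and 591 to 1319 in control cells. The glial transcription factor Sox10 lay between 133 and 330 on all arrays. Of the 6 glial markers that passed, 4 had a mean difference above control and 2 below it in each treated group. The dim Cdh19 was at 1.59 and 1.21 from control and the dim Erbb3 at 0.60 and 0.52, while Mbp was at -0.62 and -0.12. None of these markers was called with or without the block (0 in each comparison). The summed skeletal muscle markers were 13090 to 13141 in GFP-positive cells, 13230 to 16658 in GFP-negative cells and 4377 to 9466 in control cells, nearly all of it from the actin gene Acta1. Of the 4 measured, limma called 0, and with the block the muscle genes Acta1 and Des were higher in both treated groups. Markers of melanocytes, keratinocytes, endothelial cells, leukocytes and adipocytes passed the filter for 2 of 5, 3 of 7, 3 of 6, 4 of 6 and 1 of 5 genes, and none was called with or without the block. The part of these markers in the Ptn and Ptprz1 differences was not tested.

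Genes around the ligands and receptors were taken from 7 lists, chosen with earlier results of these data known. Limma called 0 of their genes in any of the 3 comparisons, so the counts below are those of the fit with the replicate number as a block, and the genes named are those with the smallest p without the block in GFP-positive minus control. The blocked fit called 6.21% of all probe sets in GFP-positive and 3.57% in GFP-negative minus control, against which these counts can be set. Without the mean-variance trend it called 8 and 0 of all probe sets, so nearly all of its calls depend on that trend. Of 13 measured genes for other pleiotrophin and midkine binding proteins, the blocked fit called 1 in each direction for GFP-positive cells and 1 as higher for GFP-negative cells, and the median was -0.05 against 0.04 for all genes. The integrin chain Itga6 had 586 and 1347 in GFP-positive cells, 655 and 1133 in GFP-negative cells, and 306 and 361 in control cells. Its difference from control was 1.34 in GFP-positive cells (adjusted p = 0.478 by limma, or 0.00644 with the block) and 1.30 in GFP-negative cells. Ptprs, a receptor phosphatase that binds glycosaminoglycan chains, had a difference of -0.64 (limma adjusted p = 0.570, and 0.0333 in the blocked fit), and the chondroitin sulfate proteoglycan Vcan at -0.54 (-1.27 and 0.18).

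Cell surface and matrix proteoglycans went both ways, with 4 of 10 called. Of the 10 measured glypicans and other heparan sulfate proteoglycans, 3 were lower and 1 higher with the block in GFP-positive cells, and 3 lower and 1 higher in GFP-negative cells, the same 4 genes in both. The glypican Gpc6 had 1049 and 658 in GFP-positive cells, 961 and 659 in GFP-negative cells, and 3781 and 1627 in control cells (-1.54 and -1.60 from control; limma adjusted p = 0.373 for GFP-positive cells, or 0.000702 with the block). Gpc4 had 5802 and 5261 in GFP-positive cells, 6782 and 8156 in GFP-negative cells, and 10266 and 13003 in control cells (-1.06 and -0.63). Cd44, the hyaluronan receptor, was higher in both treated groups (0.63 and 0.66; limma adjusted p = 0.463 for GFP-positive cells, or 0.0116 with the block). The third lower gene, Tgfbr3, a TGF-β co-receptor named here after its values were seen, had differences of -1.52 and -1.09.

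The enzymes that build the sugar chains were taken as a pair of lists, with 1 of 23 called for heparan sulfate and 3 of 15 for chondroitin and dermatan sulfate in GFP-positive cells with the block. Of the 23 measured genes of heparan sulfate synthesis and modification, 1 was called lower with the block in GFP-positive cells and 0 in GFP-negative cells (by limma, 0 without the block). It was Glce, the glucuronyl epimerase, at -0.54 from control in both treated groups. Also named are the sulfotransferase Hs3st1 (1.49 and 0.62), dim in all groups, and the sulfatase Sulf1 (-0.27, and 0.09 with -0.01 and 0.18). Of the 15 genes of chondroitin and dermatan sulfate synthesis, the blocked fit called 2 higher and 1 lower for GFP-positive cells, and 1 each way for GFP-negative cells. Csgalnact1, which starts chondroitin chains, had 731 and 495 in GFP-positive cells, 903 and 601 in GFP-negative cells, and 2333 and 1429.9 in control cells (-1.55 and -1.27; limma adjusted p = 0.239 for GFP-positive cells, or 0.000308 with the block). Chst11, a chondroitin sulfotransferase, had 2084 and 3457 in GFP-positive cells, 2216 and 3148 in GFP-negative cells, and 835 and 1313 in control cells (1.33 and 1.31; adjusted p = 0.320, or 0.000326 with the block). The chondroitin synthase Chsy1 was at 0.69 and 0.48.

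Of 12 syndecan partners and sheddases, 1 was lower in GFP-positive cells with the block, the membrane protease Mmp14 (-0.50; limma adjusted p = 0.997, or 0.0433 with the block). Ahead of it by the p without the block were the scaffold protein Cask (-0.42) and the kinase Prkca (0.44). Of 10 other heparin-binding growth factors, 2 were higher and 2 lower with the block in each treated group. Hbegf, an EGF receptor ligand, had 3289 and 7174 in GFP-positive cells, 3815 and 8761 in GFP-negative cells, and 1098 and 2553 in control cells (1.52 and 1.77; limma adjusted p = 0.567 for GFP-positive cells, or 6.30e-05 with the block). Hgf, the hepatocyte growth factor, was at -1.35 and -1.34 and the platelet-derived growth factor chain Pdgfa at 0.85 and 0.79. The remaining lower genes, named after their values were seen, were Fgf7 in GFP-positive cells (-0.60) and the chemokine Cxcl12 in GFP-negative cells (-0.60). Of 12 nucleolar proteins, taken as context for Ncl, 3 were higher in GFP-positive cells with the block and 0 in GFP-negative cells, where limma without the block called 0 as well. These were the pseudouridine synthase Dkc1 (1.07), Nolc1 (0.70) and the methyltransferase Fbl (0.59). In GFP-positive cells 11 of the 12 were above control, with a median of 0.28 against 0.04 for all genes. Of these, Nop58 (0.02, with 0.57 and -0.52), Gnl3 (0.02) and Polr1b (0.03, with -0.01 and 0.07) lay below the median of all genes. No gene of the 7 lists was called in GFP-positive minus GFP-negative, by limma with or without the block (0 in each).

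**Figure D4:**
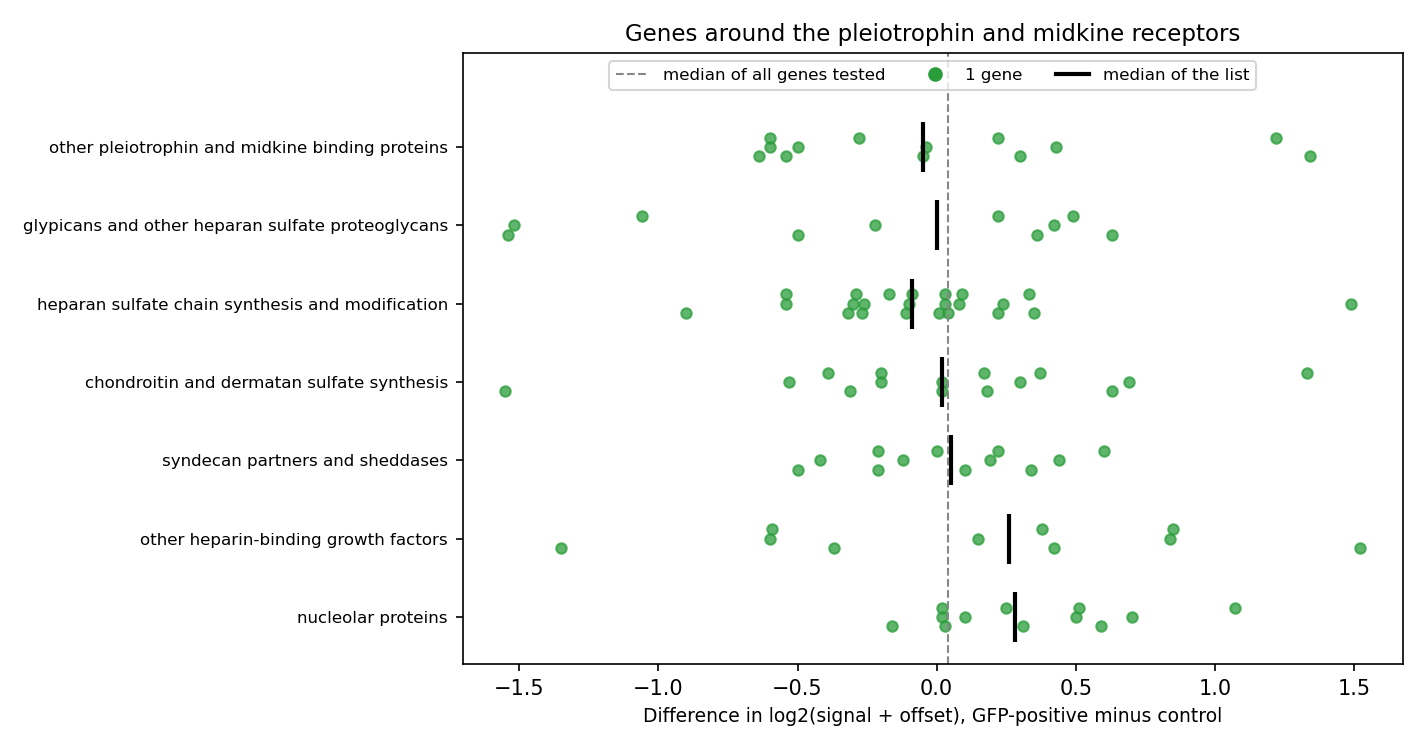
Difference of GFP-positive minus control in log2(signal + offset) (x axis) for the genes of 7 lists (rows). Each point is 1 gene at its brightest probe set, black bars are list medians, and the dashed line is the median of all genes tested (0.04). The heparan sulfate, chondroitin sulfate and proteoglycan lists spread to both sides. Of the 12 nucleolar genes 11 lie above 0, with Nop58, Gnl3 and Polr1b close to it.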

How the data were processed

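Each of the 6 RNA samples was measured on 1 array, with groups, dose and times taken per the labels. Per the submitters' processing notes MAS5 made the deposited values, which are linear signal intensity, 1 value for each probe set in a sample. No version or settings are given in the sources at hand. It listed 45101 probe sets, and 64 control probe sets were left out. Genes came from the platform annotation: 34945 probe sets had 1 symbol, 932 several and 9160 none here.

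Signals were multiplied so that the 2% trimmed mean of every array was 500. Before taking log2, 30.64 was added, which is the median lower quartile of the arrays. Probe sets with a mean signal at or above the 40th percentile (67.71) were kept, 27022 in all. Limma 3.58.1 in R 4.3.3 fitted 1 model over the 6 arrays with a mean-variance trend, 3 residual degrees of freedom, two-sided tests and p-values adjusted by Benjamini-Hochberg across the whole table, called at an adjusted p under 0.05. The fit was first run on simulated data, and the outcome is not given here and nothing is read from it. A gene was represented by its brightest probe set. Same-numbered arrays deviated together (r = 0.506 to 0.556 between groups over probe sets), so values within each number and with the number as a block are printed. The genes and lists were chosen with earlier results of these data known. Genes named from lists were any called without the block and otherwise the 3 of smallest p in GFP-positive minus control. Alternatives were other normalizations, offsets and filters, no trend, the block, no multi-transcript probe sets, the mean over a gene's probe sets, and each array left out. Multi-transcript probe sets were all those with names ending in _s_at, _x_at or _a_at, which include 1 each of Ptn, Sdc3 and Sdc4. Precision is limited by the number of arrays.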

Additional observations from a re-analysis of the deposited data

How the results depend on the processing

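The counts of called probe sets depended on the settings. Ptn was below control under all those run. Since every treated array lay below both control arrays on its brightest probe set, leaving out an array could not change that direction. GFP-positive minus control gave 33 calls, but 0 without the mean-variance trend (1674 at an unadjusted p under 0.05), 20 without probe sets that can bind more than 1 transcript, and 1679 with the replicate block. It gave 0 to 35 calls when 1 array was left out, the array missing being GFP-positive replicate 2 for 0 calls, control replicate 1 for 2, GFP-positive replicate 1 for 8 and control replicate 2 for 13. GFP-negative minus control gave 8 calls, but 16 with median centring, 3 each with the smaller offset, the stricter filter and no multi-transcript probe sets, 0 without the trend (1298 at an unadjusted p under 0.05), 966 with the replicate block, and 0 to 6 with 1 array left out. The array missing was GFP-negative replicate 1 for 0 calls, GFP-negative replicate 2 for 1, control replicate 1 for 2, GFP-positive replicate 2 for 3 and GFP-positive replicate 1 for 5. GFP-positive minus GFP-negative gave 0 throughout by limma (0 with 1 array left out, and 169 at an unadjusted p under 0.05). Chosen after seeing the data were the replicate block without the trend, with 8 and 0 calls in the comparisons with control, and the block with quantile normalization, with 1622 and 914. The first of these left 0 of the 5 and 3 member calls made with the block. The causes of these shifts were not tested.

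Ptn, at its brightest probe set in 17 alternatives and as the mean of its probe sets in 1, was below control in all 18, from -2.75 to -1.46 in GFP-positive and from -2.64 to -1.04 in GFP-negative cells, the extremes being fits that left out 1 array. Without leaving out an array the ranges were -2.14 to -1.87 and -1.90 to -1.68, where -1.87 and -1.68 are the means over its probe sets. Calls of members are given here only for settings without the block that kept every array. Median centring brought 1 member probe set to a call in GFP-positive minus control, where 40 of all 27022 were called. With no filter 1 was called as well, against 44 of all 45037, and nothing is read from these counts. Sdc3 kept its sign in all 18 (0.54 to 0.64 and 0.49 to 0.83), as did Sdc1 (0.20 to 0.78 and 0.09 to 0.51). On the brightest probe sets of Ptn, Sdc3 and Sdc1 the treated arrays did not overlap the control arrays. Leaving out an array or changing the offset, filter or trend could thus not change the sign there. Mdk changed sign in GFP-positive minus control in 1 of 18 and in GFP-negative minus control in 2 of 18, each time with an array left out. It ranged from -1.23 to 0.15 and from -0.78 to 0.60. The fits that left out an array had no block and so did not pair replicate numbers. Where replicates 1 and 2 differed in every group, as for Mdk, that difference enters the range. Within replicate numbers, GFP-positive minus control of Mdk was -0.76 and -0.33, and GFP-negative minus control was -0.44 and 0.27. Ptprz1, on 1452284_at or as the mean of its probe sets, ranged from -1.07 to -0.11 and from -0.59 to 0.00. Its lower signal on 1427019_at was not followed by itself in the alternatives. Sdc2 ranged from -1.14 to 0.00 and from -0.81 to 0.33, Sdc4 from -0.47 to 0.27 and from -0.06 to 0.94, and Ncl from -0.06 to 0.53 and from -0.25 to 0.34. Alk had no value under the stricter filter. Dim probe sets such as that of Alk allow no firm statement at 2 arrays a group.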
